A study of Mus musculus with 8 samples.

Results

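The genes Clic5, Nptx1, Mamdc2 and Fat3 were followed across 3 states of mouse bone-marrow derived macrophages. They are 4 of 20258 rows with a gene symbol in the deposited table, picked by name because their levels lay far apart between LPS plus IFNg and no stimulus: Clic5 high with LPS plus IFNg, the other 3 low. That contrast chose the genes, so its values for them are given as a description with no test. The cells were grown from marrow of C57BL/6 mice, with no allele or transgene named in the labels, and mRNA was taken after 24 h. The groups were 3 libraries with bacterial lipopolysaccharide and interferon gamma (LPS plus IFNg, the classical activating stimulus), 3 with the cytokine IL4 (the alternative one), and 2 from unstimulated cells. The labels do not say whether the libraries of a group came from separate mice or cultures, so the spread behind each p-value is that between these libraries and may be technical.

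None of the 4 genes is a standard marker of macrophage activation. Clic5 belongs to the chloride intracellular channel family, small proteins that occur in a soluble and a membrane form. The CLIC5 protein sits with the actin cytoskeleton, and in the mouse inner ear it acts with radixin at the base of stereocilia. Nptx1 encodes neuronal pentraxin 1, a secreted protein of the nervous system that gathers AMPA-type glutamate receptors at synapses. Mamdc2 encodes a proteoglycan of the extracellular matrix built from MAM domains, a fold found in many adhesion proteins. Fat3 encodes a giant cadherin of the FAT family, which in the mouse retina shapes the dendrites of amacrine cells.

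Values are the authors' quantile-normalised log2 levels from 3' end sequencing, on which 1 unit is a doubling. The depth of the libraries is unknown, since such values do not carry it. Rows above 0 numbered 10489, 10524 and 10502 with LPS plus IFNg and 10303, 9967 and 10289 with IL4. Without stimulus they numbered 11837 and 10888, so these 2 libraries had the fewest rows at 0. The part of this in low unstimulated levels set against 0 elsewhere was not tested. Many genes are listed at exactly 0 and a few lie below it. The sources used here do not give the handling of zero counts, so where a group is listed at 0 throughout, a log2 difference is only the difference of the listed values and is not to be read as a fold or a bound. The stimuli left their usual marks: Nos2, the inducible nitric oxide synthase, averaged 10.22 with LPS plus IFNg and was listed at 0 in all other libraries, and Mgl2, a lectin of alternative activation, averaged 10.37 with IL4 and was at 0 in all others. The macrophage markers Csf1r, Emr1, Cd68, Itgam, Lyz2, Mertk and Fcgr1 were above 0 in every group.

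The RefSeq table of gene starts in build GRCm38.p6 held a window for Clic5 and for Fat3. The 250 bases before each start are shown as the sequence context of a gene that is high with LPS plus IFNg and of one that is low there. Capitals mark each match to the GC-box letters GGGCGG on either strand. The Clic5 window is chr17:44188322-44188571 on the plus strand, and the Fat3 window is chr9:16502055-16502304 on the minus strand, printed 5′ to 3′ along the gene.
Clic5: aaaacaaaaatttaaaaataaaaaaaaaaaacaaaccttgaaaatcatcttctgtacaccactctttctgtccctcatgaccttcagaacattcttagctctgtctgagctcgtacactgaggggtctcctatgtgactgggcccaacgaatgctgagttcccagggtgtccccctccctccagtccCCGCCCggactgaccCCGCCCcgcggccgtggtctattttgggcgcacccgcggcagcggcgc
Fat3: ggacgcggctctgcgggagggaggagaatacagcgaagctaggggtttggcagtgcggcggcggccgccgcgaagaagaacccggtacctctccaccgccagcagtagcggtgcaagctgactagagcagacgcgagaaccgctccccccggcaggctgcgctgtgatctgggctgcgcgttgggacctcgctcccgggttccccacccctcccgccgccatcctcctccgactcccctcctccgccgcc

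Clic5's window holds 2 GC boxes, beginning 63 and 48 bases before the start, a match that 32.7% of the 32817 windows of this length also hold. Neither window holds, on either strand, an NF-kB type motif (in 0.357% of all windows), an ISRE core (2.97%), or the letters TTCNNNGAA (GAS type, 7.01%), TGANTCA (AP-1 type, 6.75%), TTGCNNAA (C/EBP type, 9.57%), GAGGAA (ETS core, 23.3%), TATAAA (12.4%) or CCAAT (33.8%). G and C made up 52.8% of the Clic5 window and 70.4% of the Fat3 window, beside a median of 52.4% over all windows. These are matches of letters in short windows and no measure of binding.

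Clic5 was the second highest of 13615 tested genes by its log2 difference between LPS plus IFNg and no stimulus, behind the chemokine gene Cxcl9. Its levels were 11.22, 10.81 and 11.19 in the LPS plus IFNg libraries, 0, 0 and 0 in the IL4 libraries, and 0.04 and 0 in the unstimulated ones. All 3 LPS plus IFNg libraries were high and close together, and each of the other 5 was at or near 0. The log2 difference from no stimulus was 11.05 (SE 0.64) on the listed values. Among all tested genes 7.97% passed in this comparison, 3.72% higher and 4.25% lower, a share from which nothing is read about genes chosen by it. The unstimulated mean of 0.02 rests on 1 library barely above 0, so the size of that difference is uncertain.

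At least 10 in each LPS plus IFNg library and under 1 in each of the other 5, limits set after the values were seen, was met by 2 genes, Nos2 and Clic5.

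Nptx1 had the lowest log2 difference of all tested genes between LPS plus IFNg and no stimulus. It was at 0 in each LPS plus IFNg library, stood at 7.31, 8.76 and 6.64 in the IL4 libraries, and at 10.39 and 10.61 in the unstimulated ones. The IL4 libraries lay between the other groups. The gap between those other groups follows from how the gene was chosen. The place of the IL4 libraries is counted below only among genes at 0 in each LPS plus IFNg library. Of 660 genes with at least 10 in both unstimulated libraries, Nptx1 was the only one listed at 0 in every LPS plus IFNg library. That limit was set after the values were seen, on the values that chose the gene, so it is a description only. With a limit of 6, 14 of 5487 genes were at 0 there.

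Mamdc2 was likewise at 0 in each LPS plus IFNg library. Its levels were 5.66, 3.97 and 5.17 with IL4 and 6.997 and 7.19 without stimulus. Again the IL4 libraries lay between the other groups, whose gap follows from the choice of the gene. It was among the 5 lowest of all tested genes by its difference between LPS plus IFNg and no stimulus.

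Fat3, also among these 5, differed from Nptx1 and Mamdc2 in where its IL4 libraries stood. Its levels were 0, 1.78 and 0 in the LPS plus IFNg libraries, 7.27, 7.04 and 7.97 in the IL4 libraries, and 7.93 and 7.31 in the unstimulated ones. The IL4 and unstimulated libraries overlapped, and all 5 lay far above the 3 LPS plus IFNg libraries. The log2 difference of LPS plus IFNg was -7.02 (SE 0.75) from no stimulus and -6.83 (SE 0.67) from IL4. With 2 of the 3 LPS plus IFNg libraries listed at 0, the size of both differences is uncertain. Of 3132 genes with at least 7 in every IL4 and unstimulated library, Fat3 was the only one under 2 in all LPS plus IFNg libraries. That limit was likewise set after the values were seen. Listed at 0 in at least 2 LPS plus IFNg libraries were 2 of these genes, Fat3 and Cenpf (2.91, 0 and 0).

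**Figure D1:**
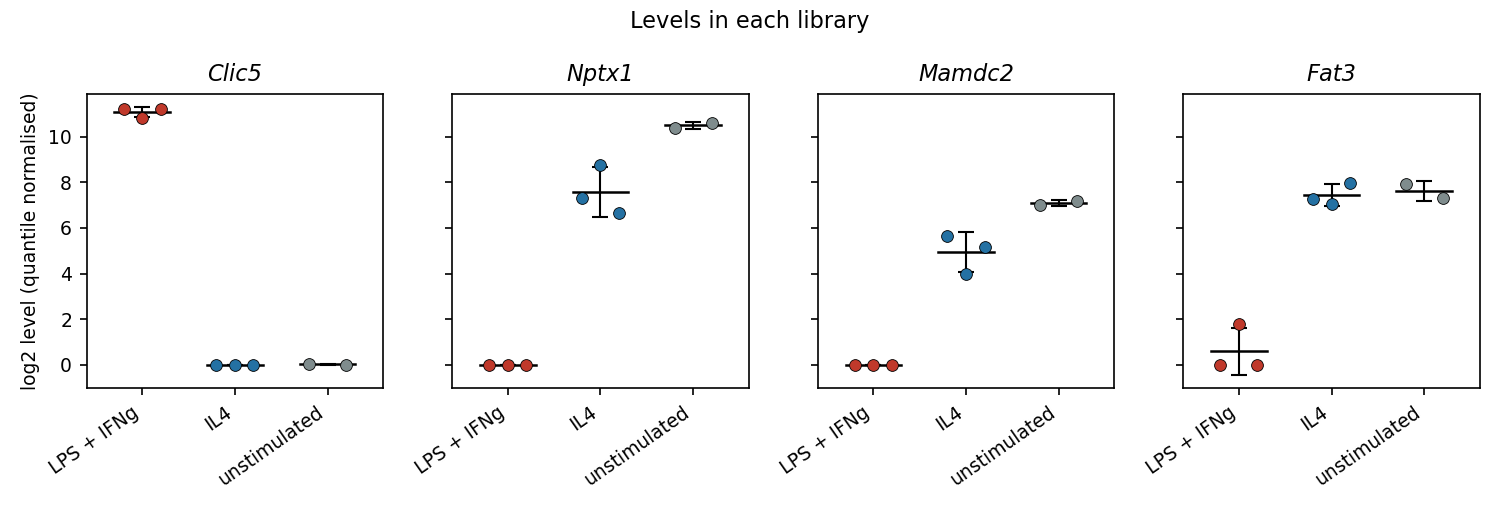
Log2 level (quantile normalised, vertical axis) of Clic5, Nptx1, Mamdc2 and Fat3 in each library of LPS plus IFNg (n = 3), IL4 (n = 3) and unstimulated macrophages (n = 2). Points are libraries, the horizontal line is the mean and bars are the SD; Clic5 stands above 10 with LPS plus IFNg alone, while the other 3 genes are at 0 there except for 1 Fat3 library at 1.78.

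Among 5487 genes with at least 6 in both unstimulated libraries, 14 were at 0 in every LPS plus IFNg library, Nptx1 and Mamdc2 among them. Of these 14 genes, 7 had every IL4 library above 0 and below both unstimulated ones: Nptx1, Mamdc2, Casc5, Ube2c, Ccna2, Kif2c and Tmem176b. None of the 14 was at 0 in all IL4 libraries. The limit of 6 was also set after the values were seen.

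The unstimulated libraries set against IL4 here took part in choosing the genes. The IL4 libraries are not named in that choice, but it was made with earlier results of these data known. In limma across all tested genes, 0 of the 4 genes passed an adjusted p of 0.05 between IL4 and no stimulus, where 1.31% of all genes did (0.514% higher and 0.793% lower). Of the 4, Nptx1 and Mamdc2 were under an unadjusted p of 0.05, as were 1648 of all 13615 genes. The alternative settings named below are other fits, filters and scalings and the fits without 1 library.

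Nptx1 averaged 7.57 ± 1.08 with IL4 (SD, n = 3) and 10.50 ± 0.16 without stimulus (n = 2). Its log2 difference was -2.93 (95% interval -4.46 to -1.39, limma adjusted p = 0.102). Over the alternative settings the adjusted p ran from 0.0505 to 0.304 and the difference stayed between -3.52 and -2.46.

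Mamdc2 averaged 4.93 ± 0.87 with IL4 (n = 3) and 7.10 ± 0.14 without stimulus (n = 2). Its log2 difference was -2.16 (95% interval -4.08 to -0.24, limma adjusted p = 0.344). The adjusted p over the alternative settings was 0.144 to 0.524. The spread behind these intervals is pooled over all 3 groups. Nptx1 and Mamdc2, at 0 in each LPS plus IFNg library, had an SD of 0 there, which adds no spread to the pool. With only the 2 compared groups fitted, the limma adjusted p was 0.262 for Nptx1 and 0.318 for Mamdc2.

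Fat3 averaged 7.43 ± 0.49 with IL4 (n = 3) and 7.62 ± 0.44 without stimulus (n = 2). The log2 difference of -0.19 was smaller than either spread (limma adjusted p = 0.998), and its 95% interval of -1.95 to 1.57 leaves room for changes in either direction. Its sign changed without IL4 replicate 2 (0.01) and without unstimulated replicate 1 (0.12). Clic5 was listed at 0 in every IL4 library, so no change with IL4 could be measured below the unstimulated level.

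**Figure D2:**
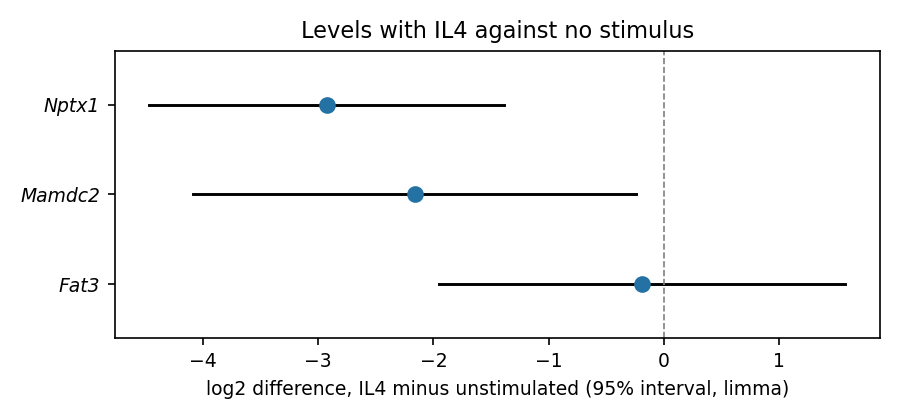
Log2 difference of IL4 (n = 3) minus unstimulated (n = 2) for Nptx1, Mamdc2 and Fat3, horizontal axis, with unadjusted 95% intervals from limma as lines and the estimate as a point. The intervals of Nptx1 and Mamdc2 lie below 0, that of Fat3 spans it, and none of the 3 passed after adjustment over all genes. The spread is pooled over all 3 groups, and Nptx1 and Mamdc2 had an SD of 0 with LPS plus IFNg.

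Set directly against IL4, the LPS plus IFNg libraries share their part in the choice of the genes, so these values are descriptive too. Clic5 averaged 11.07 ± 0.23 with LPS plus IFNg and was at 0 in all IL4 libraries. Nptx1 was at 0 in each LPS plus IFNg library, against an IL4 mean of 7.57, and Mamdc2 at 0 against 4.93. Among all tested genes 12.9% passed between these groups, 5.91% higher and 6.96% lower with LPS plus IFNg. Both comparisons with LPS plus IFNg use the same 3 libraries of that group.

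The genes nearest in pattern were found by the root mean square difference of log2 levels over the 8 libraries, each gene centred on its own mean. This distance is not scaled and includes the libraries that chose the members. It therefore favours other genes far apart between LPS plus IFNg and no stimulus, and is a description only. Nos2 and Cxcl9 were among the 5 highest by that difference, and Ccna2, X99384, Ube2c and Kif2c among the 8 lowest. For Clic5 they were Nos2 (0.46), Cxcl9 (0.55) and the Schlafen gene Slfn4 (0.87). Slfn4 stood at 9.96, 10.55 and 10.10 with LPS plus IFNg, 0, 0 and 1.54 with IL4, and 0.91 and 0.37 without stimulus. For Nptx1 the nearest were Ccna2 (1.23), X99384 (1.49) and Ube2c (1.504). Ccna2 encodes cyclin A2 and Ube2c a ubiquitin-conjugating enzyme that the anaphase-promoting complex uses. Ccna2 was at 0 in each LPS plus IFNg library and averaged 7.10 with IL4 and 7.73 without stimulus. The nearest genes of Nptx1 were thus further from it than those of the other members were from theirs.

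For Mamdc2 the nearest were Kif2c (0.57), a kinesin of mitotic spindles, Ube2c (0.72) and Pkmyt1 (0.77), a kinase that inhibits Cdk1. For Fat3 they were Casc5 (0.67), a kinetochore scaffold, Ccna2 (0.67) and Smpd3 (0.68), a neutral sphingomyelinase. Smpd3, like Fat3, had a level above 0 in LPS plus IFNg replicate 2 (1.17, and 1.78 for Fat3) and in neither of the other LPS plus IFNg libraries. Both values are low and from 1 library, and Smpd3 was picked for closeness over these same libraries. Among the members, Mamdc2 and Fat3 were 1.15 apart, and Nptx1 was 1.73 from Mamdc2 and 1.67 from Fat3.

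**Figure D3:**
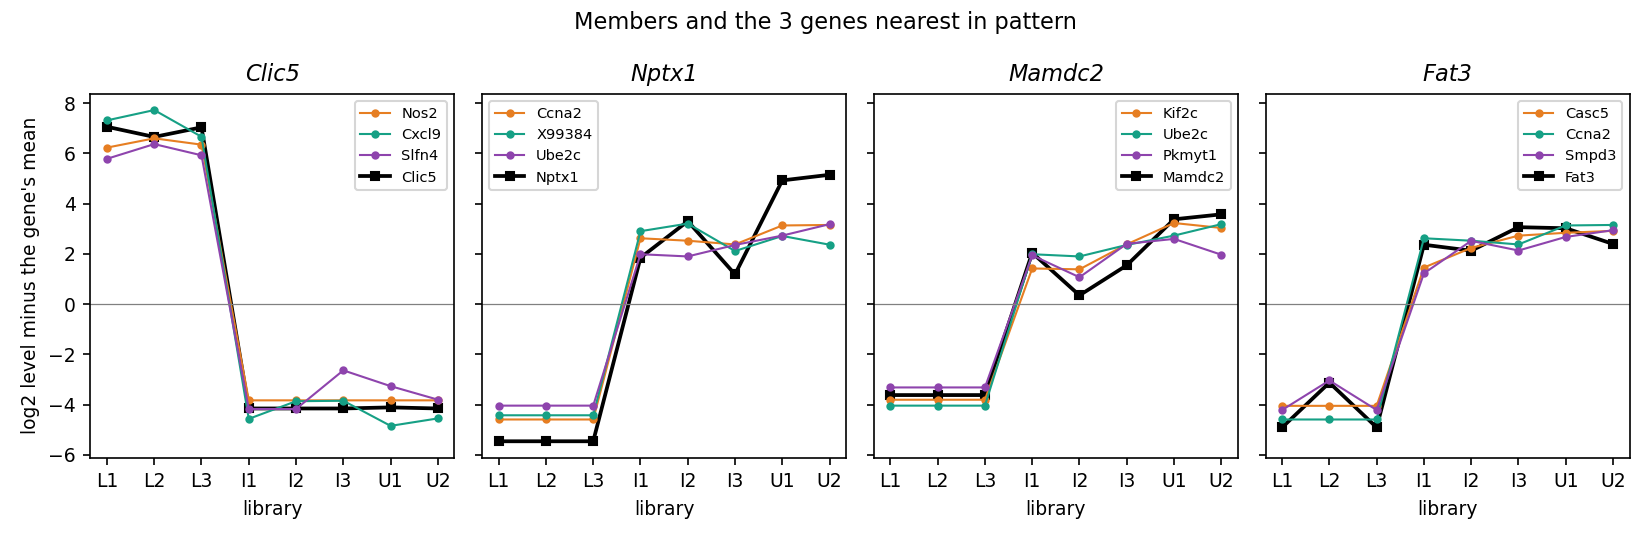
Log2 level minus the gene's own mean over the 8 libraries (vertical axis) for each member, black squares, and its 3 nearest genes by root mean square difference, coloured. L, I and U with a number stand for LPS plus IFNg, IL4 and unstimulated libraries, and lines only join points of 1 gene. Clic5 lay 0.46 from Nos2 and Mamdc2 0.57 from Kif2c, by a distance that includes the libraries that chose the members.

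Several of these neighbours in pattern are genes of cell division. Of 22 cell cycle genes, 14 fell with LPS plus IFNg, none rose and 8 did not pass (limma adjusted p of 0.05; 4.25% of all tested genes fell), with a list median of -4.32 beside -0.04 over all genes. Plk1, a mitotic kinase, was at 0 in each LPS plus IFNg library and averaged 6.25 without stimulus. Ccnb2, a cyclin of mitosis, was at 0 likewise and averaged 6.22 without stimulus. Top2a, the DNA topoisomerase of dividing cells, averaged 4.46 with LPS plus IFNg and 10.16 without stimulus, a log2 difference of -5.70 (SE 0.41, adjusted p = 0.000798). Pcna, the sliding clamp of DNA replication, did not pass (-0.55, adjusted p = 0.445). With IL4 0 of the 22 passed in limma (1 at an unadjusted p under 0.05), with a list median of -0.04. The summed log2 level of the list was 57.5 to 69.1 with LPS plus IFNg, 149 to 156 with IL4 and 154 to 155 without stimulus. The count of 14 was 7 without unstimulated replicate 2 and at an adjusted p of 0.01. The part of cell division in the low levels of Nptx1, Mamdc2 and Fat3 was not tested.

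Markers of other cell types were read beside these values, as sums of log2 levels over a list per library. In such bulk samples fewer cells of a type and less RNA per cell cannot be told apart. The 8 neutrophil and precursor markers summed to 26.2 to 31.1 with LPS plus IFNg, 42.2 to 53.9 with IL4 and 56.1 to 57.2 without stimulus. Of them, 4 fell with LPS plus IFNg, where 4.25% of all tested genes fell. Not all of these falls hold without 1 library. The 4 were S100a8, S100a9, Ltf and Mmp8, genes of neutrophil granules and cytosol, with log2 differences of -3.01, -3.47, -5.55 and -3.22 (limma adjusted p = 0.00146, 0.00448, 0.0132 and 0.0068). With LPS plus IFNg S100a8 still averaged 6.27, S100a9 6.75, Mmp8 4.33 and Elane 4.15. Mpo was the only marker of the list at 0 in every library of that group, and it did not pass (adjusted p = 0.136). The part of these cells in the result was not tested. The 10 fibroblast markers summed to 44.7 to 58.3 with LPS plus IFNg, 51.1 to 52.2 with IL4 and 50.9 to 54.0 without stimulus, and 0 of 10 passed in any comparison in limma (1 at an unadjusted p under 0.05 with LPS plus IFNg and 3 with IL4 against no stimulus, and 2 between the stimuli). Collagen gene Col1a2 averaged 10.13 with LPS plus IFNg, 10.14 with IL4 and 10.84 without stimulus, so a stromal marker was present in every group, and the part of such cells in the members' levels was not tested. Of 7 neural markers, Syt1, Rbfox3, Nefl, Gfap and Sox10 were at 0 in all 8 libraries, and Snap25 was above 0 in none. Tubb3, a neuronal tubulin, stood at 4.34, 4.94 and 2.93 with LPS plus IFNg, 0, 4.19 and 0 with IL4, and 2.07 and 3.86 without stimulus, and passed in no comparison.

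With LPS plus IFNg against no stimulus, where 7.97% of all genes passed, 0 of 5 endothelial and 0 of 5 mast cell and basophil markers passed in limma, and 0 of either list were at an unadjusted p under 0.05. Of 7 dendritic cell markers 1 was higher, Ccr7, a chemokine receptor, at 5.38, 4.61 and 3.88 with LPS plus IFNg and at 0 in all other libraries. Of 5 lymphocyte markers 1 was lower, Cd3g, at 0 in all stimulated libraries and at 3.86 and 1.58 without stimulus. Those levels were low too, in the libraries with the fewest rows at 0. Of 4 osteoclast markers 1 was lower, the proton pump subunit gene Atp6v0d2, with a log2 difference of -3.40 (SE 0.35, adjusted p = 0.00251). Of 7 macrophage markers 1 was higher, Fcgr1, and 2 were lower, Csf1r and Lyz2. With IL4, where 0.793% of all genes were lower, the macrophage markers Lyz2, Mertk and Fcgr1 fell and 0 of the other lists' markers passed in limma (at an unadjusted p under 0.05 were 3 fibroblast markers and 1 each of the neutrophil, dendritic cell and lymphocyte markers).

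Of the 4 other genes of the Clic5 family on the list, Clic3 and Clic6 were at 0 in every library. Clic4 rose with both stimuli: its levels were 12.59, 12.22 and 12.63 with LPS plus IFNg, 13.05, 12.80 and 13.24 with IL4, and 10.89 and 11.13 without stimulus. The log2 difference from no stimulus was 1.47 with LPS plus IFNg (SE 0.23, limma adjusted p = 0.0105) and 2.02 with IL4 (SE 0.23, adjusted p = 0.0142). Clic1 had log2 differences of -1.02 with LPS plus IFNg (adjusted p = 0.129) and -0.48 with IL4 (adjusted p = 0.629). Without unstimulated replicate 1, Clic4's log2 difference with LPS plus IFNg was 1.35. Its call with IL4 was lost when only these groups were fitted (adjusted p = 0.0631). Both calls were lost with a replicate block (0.0531 with LPS plus IFNg and 0.113 with IL4) and at an adjusted p of 0.01.

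The ezrin, radixin and moesin proteins tie membrane proteins to actin. Of 9 tested genes of that list, which adds CLIC5 partners, 1 fell with LPS plus IFNg and none passed with IL4, beside 7.97% and 1.31% of all genes. The faller was Cd44, the hyaluronan receptor, at 11.36 ± 0.33 with LPS plus IFNg (n = 3) and 12.42 ± 0.07 without stimulus (n = 2), adjusted p = 0.0437. That call was lost in 7 of the 8 fits without 1 library (adjusted p up to 0.186) and with equal housekeeping means (0.406). Against IL4 Cd44 was the one gene of the list to pass, lower with LPS plus IFNg by a log2 difference of -1.77 (SE 0.22, adjusted p = 0.0026). Msn, moesin, and Rdx, radixin, had log2 differences of -0.04 and -0.53 with LPS plus IFNg (adjusted p = 0.96 and 0.409). Ptprq, a partner of CLIC5 in hair cells, was at 0 in all libraries.

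Of the pentraxin family, Nptx2 and Crp were at 0 in every library, and 0 of the 4 tested relatives passed in any comparison in limma (1 at an unadjusted p under 0.05 with IL4, 0 with LPS plus IFNg, and 1 between the stimuli). Nptxr, the receptor-like neuronal pentraxin, stood at 0, 4.36 and 0 with LPS plus IFNg, 4.50, 6.08 and 6.28 with IL4, and 4.95 and 3.41 without stimulus. Its groups overlapped for LPS plus IFNg and no stimulus (log2 difference -2.72, adjusted p = 0.385). Ptx3, a pentraxin of innate immunity, had a log2 difference of 1.51 with LPS plus IFNg (adjusted p = 0.463). Of the AMPA receptor genes, Gria1, Gria2 and Gria4 were at 0 in all libraries, and Gria3 did not pass (-1.32, adjusted p = 0.632).

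Of the 15 other MAM domain genes, 8 were tested. Nrp1, a co-receptor for semaphorins and VEGF, was the only one of the 8 to pass with LPS plus IFNg, where 7.97% of all tested genes did (4.25% lower). It stood at 9.58 ± 0.52 (n = 3) against 11.40 ± 0.15 without stimulus (n = 2). Its log2 difference was -1.82 (SE 0.33, limma adjusted p = 0.0171), and -1.43 from IL4 (adjusted p = 0.0194), where 12.9% of all genes passed (6.96% lower). With equal housekeeping means, which shift the median of all genes by 0.66, Nrp1 no longer passed (adjusted p = 0.0919 and 0.134). Its call was also lost in 3 of the 8 fits without 1 library against no stimulus (up to 0.145) and in 5 against IL4 (up to 0.077). Its paralog Nrp2 had a log2 difference of 1.95 with LPS plus IFNg (adjusted p = 0.06). With equal housekeeping means 1 gene of the list rose and none fell with LPS plus IFNg. With IL4 0 of the 8 passed in limma, and 0 were at an unadjusted p under 0.05.

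Of the relatives of Fat3, Fat2 was at 0 throughout, Fat4 and Dchs1, the ligand-receptor pair of planar polarity, were at 0 in all stimulated libraries, and Fat1 ranged from 3.27 to 5.53 with LPS plus IFNg, 0 to 4.196 with IL4 and 1.84 to 5.26 without stimulus. Of the 4 tested relatives 0 passed in limma in any comparison, and 0 were at an unadjusted p under 0.05. In the Hippo pathway, which FAT cadherins control in the fly, 1 of 21 genes fell with LPS plus IFNg and none rose, where 4.25% of all genes fell and 3.72% rose, so this share is near that of all genes. With IL4 1 rose and 2 fell, where 0.514% of all genes rose and 0.793% fell. With equal housekeeping means 3 rose and none fell with LPS plus IFNg.

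Wwc1, an upstream Hippo scaffold, was the riser with IL4: 9.07, 9.11 and 8.15 with IL4 against 3.23 and 4.41 without stimulus, a log2 difference of 4.95 (SE 0.51, adjusted p = 0.0134, or 0.0739 with only these groups fitted). Ankrd1, a target of the pathway, was at 0 in all LPS plus IFNg and IL4 libraries and at 2.11 and 2.43 without stimulus. Its unstimulated levels were low, in the libraries with the fewest rows at 0. Its calls were lost with equal housekeeping means (adjusted p = 0.067 with LPS plus IFNg and 0.0731 with IL4). Ctgf, another target, fell with IL4, by a log2 difference of -1.33 (adjusted p = 0.033), a call lost in 7 of the 8 fits without 1 library (up to 0.079).

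Ena/VASP proteins, actin regulators linked to FAT3 in the mouse retina, did not pass in limma against no stimulus with either stimulus (0 of 3, and 1 at an unadjusted p under 0.05 with each). Between LPS plus IFNg and IL4, Vasp was higher by 1.36 (SE 0.30, adjusted p = 0.0267) and Evl lower by a log2 difference of -1.54 (SE 0.31, adjusted p = 0.0172), where 12.9% of all genes passed. Vasp's call was lost in 6 of the 8 fits without 1 library (up to 0.0962) and Evl's in 2 (up to 0.069), and Evl's also with equal housekeeping means (0.11).

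**Figure D4:**
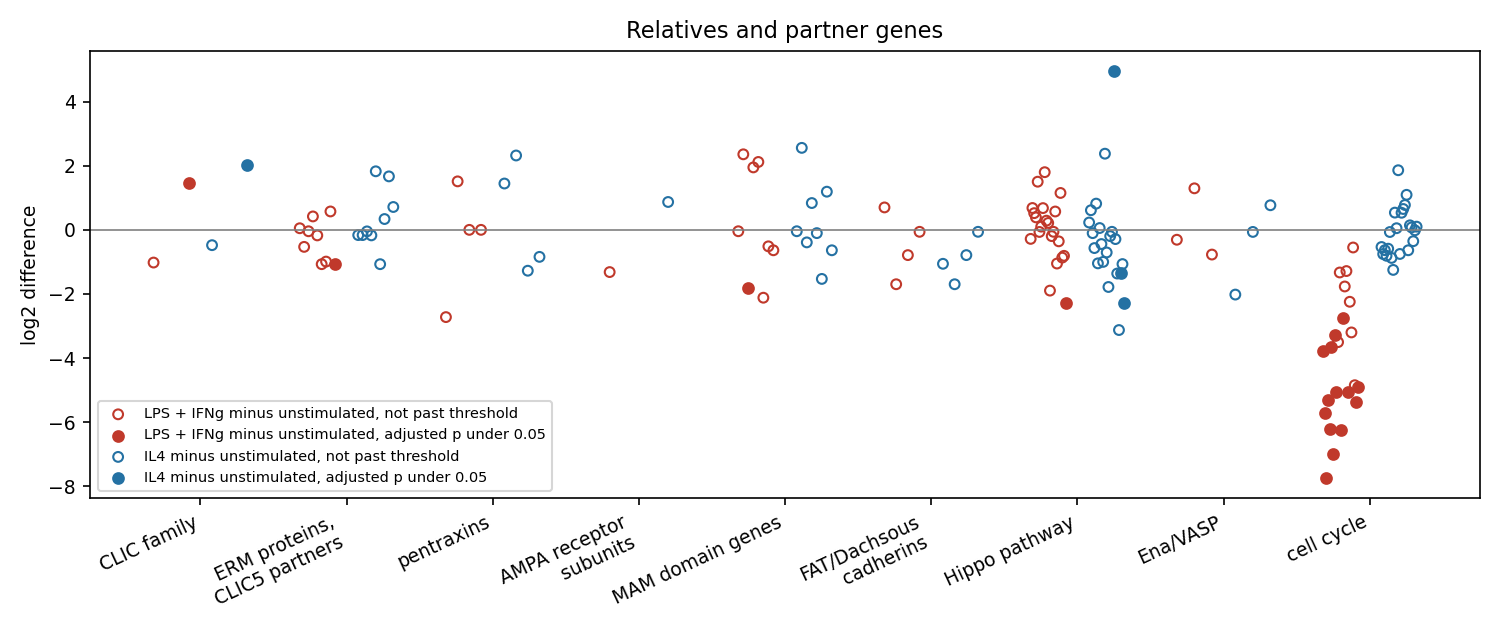
Log2 difference from no stimulus (vertical axis) of the tested genes of each list, for LPS plus IFNg (red) and IL4 (blue); filled points passed limma at an adjusted p of 0.05 and open points did not. The cell cycle list stands lowest with LPS plus IFNg, 14 of 22 filled, and Clic4 is filled for both stimuli.

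The members lie on 4 chromosomes, Clic5 on 17, Nptx1 on 11, Mamdc2 on 19 and Fat3 on 9. Order on the chromosome was read from RefSeq on GRCm38.p6, while the table rests on mm9. No coordinates are given beyond the windows of Clic5 and Fat3 above. The matched GENCODE transcripts hold 6 exons for Clic5, 5 for Nptx1, 14 for Mamdc2 and 25 for Fat3, with coding regions of 251, 432, 686 and 4551 codons. The nearest coding neighbour of Clic5 on 1 side, Enpp4, which encodes a phosphodiesterase, stood at 6.86, 7.29 and 7.16 with LPS plus IFNg, 0, 0 and 2.26 with IL4, and 3.16 and 0 without stimulus. Its log2 difference was 5.52 with LPS plus IFNg against no stimulus (SE 1.22, limma adjusted p = 0.0365), lost in 6 of the 8 fits without 1 library (up to 0.155), and 6.35 against IL4 (adjusted p = 0.00967). Enpp4 is singled out after its values were seen.

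None of the other neighbours that were tested passed with LPS plus IFNg. No row was matched for Rnf213 near Nptx1 or 4930564C03Rik near Clic5. Mtnr1b, Naalad2, Ubtfl1 and 1700028P14Rik were at 0 throughout and not tested. Runx2, on the other side of Clic5, had a log2 difference of -0.14 (adjusted p = 0.955). Rptor beside Nptx1 had 0.30 (0.842), Smc5 beside Mamdc2 0.14 (0.895) and Chordc1 beside Fat3 -0.29 (0.886).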

How the data were processed

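Bone-marrow derived macrophages were profiled by strand-specific 3' end RNA sequencing in 8 libraries that were barcoded, pooled and amplified together, with no molecular identifiers described, per the labels' protocols. The deposited values are quantile-normalised log2 levels, per the file header; the submitters' processing notes name TopHat and mm9, and how reads were counted or scaled by length is not stated there. The table has 20259 rows, 1 without a symbol.

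From these values, group means were fitted with limma 3.58.1 in R 4.3.3 with an intensity trend over all 8 libraries. After 6643 constant rows were left out, 13615 were tested, with Benjamini-Hochberg adjustment over all of them and a threshold of 0.05. The fit has 5 residual and 2.31 prior degrees of freedom. The code was tested on simulated data. The members and gene lists were chosen with earlier results of these data known. Lists cover the families and partners of the members, the Hippo pathway, the cell cycle and markers of macrophages and other cells. Named from each list were genes past the threshold, the 5 with the largest difference where more passed, and, outside the marker lists, up to 2 abundant ones that did not. Of the marker lists, those past it against no stimulus were named, with Col1a2, Tubb3, Elane and genes listed at 0 named after their values were seen. Of the 3 nearest patterns all were named. Alternatives were no trend, only the compared groups, a filter on low means, 1 added on the linear scale, values below 0 set to 0, equal means of 9 housekeeping genes, a replicate block, a threshold of 0.01 and each library left out. Alternatives for list genes and Enpp4 were added after the data were seen.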

Additional observations from a re-analysis of the deposited data

How the results depend on the processing

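Against no stimulus with IL4, 70 genes were higher and 108 lower. With only these groups fitted the counts were 16 and 54, at an adjusted p of 0.01 they were 8 and 2, and with the genes of lowest mean left out 110 were higher. Leaving out 1 library gave 40 to 135 higher and 63 to 277 lower, with shifts over 1.5 times without LPS plus IFNg replicate 2 or 3 or either unstimulated replicate. With LPS plus IFNg, 506 were higher and 579 lower than without stimulus. Equal housekeeping means gave 1056 and 273, an adjusted p of 0.01 gave 221 and 217, and leaving out 1 library gave 332 to 531 and 369 to 581, lowest without LPS plus IFNg replicate 2, and 383 lower without unstimulated replicate 2. Between LPS plus IFNg and IL4, 804 were higher and 948 lower, 1602 and 475 with equal housekeeping means, 427 and 379 at an adjusted p of 0.01, and 561 to 752 and 633 to 782 without 1 library.

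Same-numbered libraries did not deviate together (correlations of -0.0791 to 0.0718 over 7283 genes), so the numbers were not taken as pairs. With a replicate block, 7 genes were higher and 1 lower with IL4, and 255 higher and 256 lower with LPS plus IFNg, against no stimulus, 14 falling cell cycle genes became 8, and the difference of listed values of Nptx1, at 0 throughout with LPS plus IFNg, was -10.27.

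The next values for Clic5 against IL4, and for Nptx1 and Mamdc2 with LPS plus IFNg, set listed values against a group at 0 throughout and are neither folds nor bounds. Clic5's difference between LPS plus IFNg and no stimulus was 10.06 with 1 added on the linear scale and 11.71 with equal housekeeping means (10.98 to 11.18 without 1 library), and from IL4 10.07 and 11.68. Nptx1's was -9.50 and -9.84, and Mamdc2's -6.11 and -6.44, against no stimulus; Mamdc2's from IL4 was -3.99 with 1 added. Between IL4 and no stimulus, Clic5's was -0.02, and 0.033 with equal housekeeping means and -0.0435 to 0 without 1 library, and Fat3's ran from -0.50 to 0.12, above 0 without unstimulated replicate 1 (0.12) or IL4 replicate 2 (0.01). Fat3's difference between LPS plus IFNg and no stimulus was -6.24 with 1 added and -6.36 with equal housekeeping means. It ran from -7.62 to -6.71 without 1 library. With 2 of its 3 LPS plus IFNg libraries at 0, these too depend on listed zeros. Equal housekeeping means move every gene alike, by 0.659 for LPS plus IFNg against no stimulus and 0.604 against IL4. Adding 1 on the linear scale turns a listed 0 into 1, so the shifts with these 2 settings follow from the settings. The cause of the shifts without 1 library was not tested. The 2 unstimulated libraries and the values at 0 limit all 3 comparisons.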
